A study of Mus musculus with 94 samples.

Results

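The respiratory chain genes of the nuclear genome were examined in single PV-ADSCs, the mesenchymal stem cells sorted from the adipose tissue around the mouse aorta. All genes of the deposited table whose symbol begins with Nduf, Uqcr, Cox4 to Cox8 or Atp5, or is Sdha, Sdhb, Sdhc or Sdhd, were taken, which gave 96 of 16069 genes. They comprised 7 core subunits, 31 other subunits and 8 assembly factors of complex I, 4 subunits of complex II, 8 of complex III, 14 of complex IV and 17 of complex V, and 7 rows named as pseudogenes. *Ndufa4* was counted with complex I by its symbol, although its product is now placed with complex IV. *Atp5s* and *Atp5sl*, which RefSeq calls *Dmac2l* and *Dmac2*, were counted with complex V by symbol, and *Cox7a2l* with complex IV.

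All cells came from normal adipose tissue of c57/bl mice aged 8 weeks, taken from the collagenase-released stromal vascular fraction and sorted as CD144-, CD45-, CD29+ and Sca1+. The series describes 94 cells, of which 85 have values after the study's filter on aligned reads, and each cell is a separate SMART-seq v4 library. No animal is named for a cell, so the 85 cells count as 1 sample. There was therefore no test, and every error below is the spread over cells or a counting error.

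The respiratory chain passes electrons from NADH through complex I, or from succinate through complex II, to complex III and complex IV, which reduces oxygen. Complexes I, III and IV pump protons across the inner mitochondrial membrane, and complex V, the ATP synthase, uses that gradient to make ATP. Except for complex II, each is built from many nuclear-encoded subunits together with a few encoded by mitochondrial DNA.

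Cells were divided by *Dcn*, which encodes the matrix proteoglycan decorin. The 58 cells with a deposited *Dcn* value of at least 1000 are called stromal cells and the 27 others are called other cells. The lowest value among stromal cells was 6521 and the highest among other cells was 269. At least 3 of 8 stromal markers reached a value of 100 in 57 stromal cells and in 0 other cells. At least 3 of 12 endothelial markers did so in 23 other cells and in 1 stromal cell, although the gate had excluded CD144, the product of *Cdh5*. *Cdh5* was above 0 in 23 of the 27 other cells (85.2%, interval 66.3% to 95.8%) and *Pecam1* in 17. Among the 58 stromal cells, *Cdh5* was above 0 in 7 (12.1%) and *Pecam1* in 14 (24.1%). Of 7 brown adipocyte markers only *Adipoq* and *Dio2* had a row, each above 0 in 1 cell, and *Ucp1* was not analysed here. Reads recovered from the deposited values, as described under processing, had a median of 2963854 per stromal cell (range, 1146951 to 4776510) and 2714449 per other cell (range, 1727402 to 3655526). Genes above 0 differed more, with a median of 2813 per stromal cell (range, 850 to 4148) and 1416 per other cell (range, 285 to 2278).

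How widely the respiratory chain genes were detected was asked first. Detection means a value above 0, shares of cells carry exact Clopper-Pearson 95% intervals, and these cover only the error of counting cells. The genes were above 0 in 1 to 73 cells (median, 36.5). *Cox4i1*, a subunit of cytochrome c oxidase, complex IV, was the most widespread, in 73 of 85 cells (85.9%, interval 76.6% to 92.5%). *Atp5j*, the coupling factor 6 of ATP synthase, followed in 67 cells (78.8%, interval 68.6% to 86.9%). *Atp5b*, the catalytic β subunit, was above 0 in 64 cells, *Cox6c* in 63, *Cox6a1* in 62, *Ndufa3* in 61 and *Atp5e*, the ε subunit, in 60. The intervals of these 7 genes overlapped, so their order is not resolved. At the other end, *Atp5s*, *Atp5sl*, *Cox4i2* and *Ndufaf6* were each above 0 in 1 cell, a stromal one. In stromal cells 49 of the 96 genes were above 0 in 50% of cells or more, compared with 10.4% of all genes. In other cells 11 were, compared with 2.53% of all genes.

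**Figure D1:**
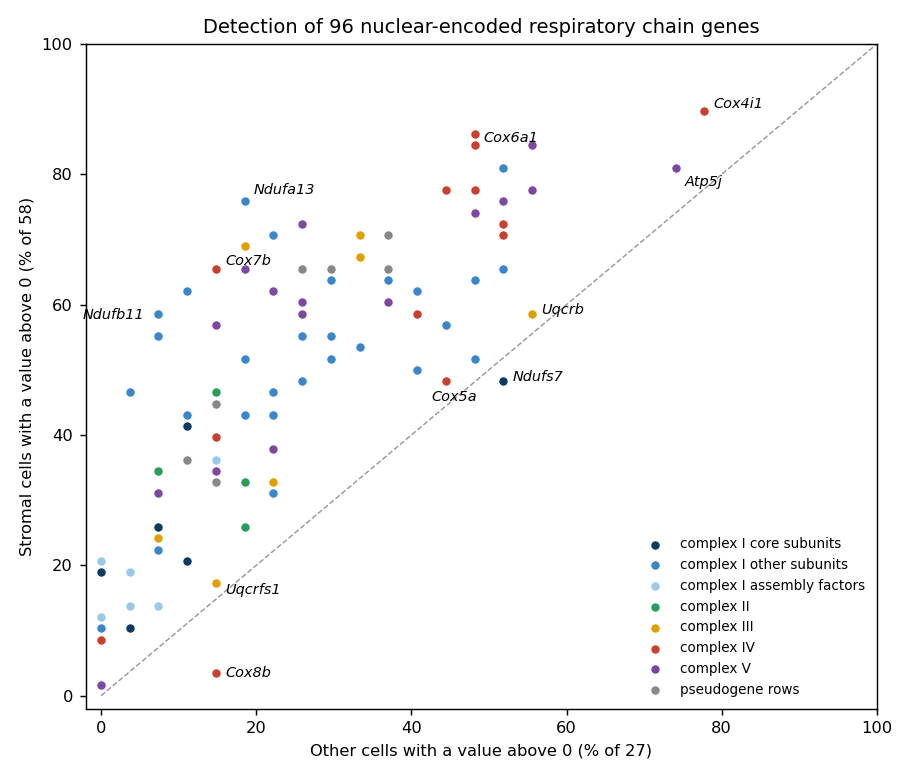
Each point is 1 of the 96 genes, with the percentage of the 27 other cells above 0 on the x axis and of the 58 stromal cells on the y axis, coloured by complex. The dashed line marks equal shares. Nearly all points lie above it, with *Cox4i1* at the top right and *Cox8b* and *Ndufs7* below the line.

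A larger share of stromal than of other cells was above 0 for 90 of the 92 genes found in at least 3 cells. The same held for 85.1% of all 11478 such genes. The 2 exceptions were *Cox8b* and *Ndufs7*. For 21 of the 92 genes the interval of the stromal share lay wholly above that of the other cells, compared with 14.8% of all genes. These included *Ndufa13*, *Ndufa2*, *Ndufb11*, *Ndufv3*, *Uqcrh*, *Cox7b*, *Cox6a1*, *Atp5a1* and *Atp5f1*, and they came from complexes I, III, IV and V, besides 2 pseudogene rows. The reverse, with the interval of other cells wholly above, was seen for 0 of the 92 genes and for 0.714% of all genes. Another 10 of the 96 genes were above 0 in 0 of 27 other cells, compared with 43.4% of all genes. Taking 3 cells as the limit that a count of 0 allows, their share could be up to 11.1%. They were *Ndufv1*, *Ndufaf4*, *Ndufaf5*, *Ndufaf6*, *Ndufaf7*, *Ndufa4l2*, *Cox4i2*, *Cox6b2*, *Atp5s* and *Atp5sl*, found in 1 to 12 stromal cells.

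To compare levels of different genes, the length was taken into account, as recovered reads per 1000000 of a cell's reads (CPM) and per kilobase of the principal GENCODE transcript, averaged over all 85 cells. On this scale *Uqcrb*, a small subunit of complex III, was highest at 868, followed by *Ndufa1* at 843, *Uqcr11* at 716, *Cox6a1* at 687 and *Cox4i1* at 630. The order differed between the classes. In stromal cells *Ndufa1* was highest at 890, followed by *Cox6a1* at 739 and *Uqcrb* at 672, whereas in other cells *Uqcrb* was highest at 1290, followed by *Uqcr11* at 880. The median was 264 for complex III, 258 for complex IV, 197 for complex V and 177 for the complex I subunits outside its core. It was 93 for complex II, 89.3 for the complex I core and 15.6 for the complex I assembly factors. Thus by median the core of complex I and succinate dehydrogenase ranked below the accessory subunits of complex I. The 49 protein-coding genes with a transcript under 1000 bases had a median of 260 per kilobase, compared with 77.8 for the 40 longer ones. Counted as CPM without the length, these medians were 172 and 128. The authors' isoforms were not known, and for genes with a long annotated 3′ end such as *Atp5g1* and *Ndufb2* the length may be too large.

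Reads on the 96 genes, not divided by length, were spread over many of them. *Atp5b* took 3.96% of all recovered reads on the 96 genes, *Cox4i1* 3.33% and *Uqcrb* 3.30%, and the 10 highest genes together took 26.9%.

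The promoters of the respiratory genes were also read, whether the genes were widely detected or not. Nuclear respiratory genes are known to share binding sequences for NRF1, for ETS factors such as GABPA, and for YY1. Windows from 250 bases before to 50 bases after each start (RefSeq, GRCm38.p6) were found for 75 of the 96 genes. The widespread *Cox4i1* and *Cox6c* were not among them. In these windows 8-letter or 7-letter strings were sought on both strands. GCATGCGC, for NRF1, was present in 12 of these 75 genes (16%), in 3.05% of all 27025 genes and in 3.94% of 17492 protein-coding genes. CCGGAAG, for ETS factors, was in 18 genes (24%), compared with 9.93% of all and 12.9% of protein-coding genes. AAGATGGC, for YY1, was in 12 genes (16%), compared with 3.19% and 3.57%. At least 1 of the 3 strings was in 35 of the 75 genes (46.7%), compared with 14.9% of all and 18.7% of protein-coding genes. Among the 35 were *Uqcr11*, *Sdhb*, *Atp5k* and *Ndufs3*. CCGGAAG and AAGATGGC can overlap by the AAG they share. A match is a description of the sequence and not of binding, and the genome build of the deposited table was mm9, which was not used for sequence. *Nrf1* itself was above 0 in 7 stromal cells and 0 other cells, and *Gabpa* in 7 and 2. The 250 bases before the start of the 3 widespread genes that hold 2 kinds of string there are printed 5′ to 3′ on the minus strand, with matches on either strand in capitals: *Atp5j* at chr16:84834977-84835226 (ETS and YY1), *Cox6a1* at chr5:115348959-115349208 (ETS and NRF1) and *Atp5l* at chr9:44920743-44920992 (ETS and NRF1).
Atp5j: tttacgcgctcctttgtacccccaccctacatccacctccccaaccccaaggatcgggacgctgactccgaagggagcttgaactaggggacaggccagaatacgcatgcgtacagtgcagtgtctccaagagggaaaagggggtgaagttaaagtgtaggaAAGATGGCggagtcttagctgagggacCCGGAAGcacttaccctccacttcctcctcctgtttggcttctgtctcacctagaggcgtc
Cox6a1: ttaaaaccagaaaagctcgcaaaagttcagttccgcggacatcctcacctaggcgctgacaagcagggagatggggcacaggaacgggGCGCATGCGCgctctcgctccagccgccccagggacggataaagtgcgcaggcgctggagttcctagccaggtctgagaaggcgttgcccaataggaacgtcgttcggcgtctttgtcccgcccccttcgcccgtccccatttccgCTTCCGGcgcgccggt
Atp5l: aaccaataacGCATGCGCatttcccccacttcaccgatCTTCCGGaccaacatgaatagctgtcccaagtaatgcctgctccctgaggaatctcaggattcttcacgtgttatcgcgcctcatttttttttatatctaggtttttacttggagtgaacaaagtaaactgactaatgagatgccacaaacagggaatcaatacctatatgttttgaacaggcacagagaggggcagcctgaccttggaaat
In *Atp5j* both matches lie between 88 and 55 bases before the start, whereas in *Atp5l* they lie between 240 and 206 bases before it.

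Next, the cells were compared by how many of the 96 genes each held. Stromal cells held a median of 47 (lowest, 12, highest, 76) and other cells a median of 24 (lowest, 1, highest, 42). The ranges overlapped, yet 42 was the most any other cell reached. The number of these genes followed the number of genes detected in all, with a Spearman rho of 0.89 over the 58 stromal cells and 0.88 over the 27 other cells, both counts being taken from the same library. As a share of the genes detected in a cell, the respiratory genes made up a median of 1.64% in stromal cells and 1.78% in other cells.

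The share of a cell's deposited values that fell on the 96 genes was likewise close between the classes. Its median was 1.45% in stromal cells (lowest, 0.124%, highest, 2.55%) and 1.65% in other cells (lowest, 0.000124%, highest, 3.27%). In recovered reads the medians were 1.43% and 1.47%, with SDs over cells of 0.467 and 0.757. The difference was thus smaller than the spread over cells, while the number of genes that carried those reads differed. In 3 other cells with 285 to 405 genes above 0, only 1, 5 and 4 of the 96 genes were found. Between 31.2% and 52.4% of the reads of those 3 cells fell on the 13 mitochondrially encoded respiratory genes, and none of the endothelial markers reached a value of 100 in them. Their part in the class medians is given by leaving them out with the 3 further cells under 1000 genes, which left medians of 47 and 28 genes per cell.

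**Figure D2:**
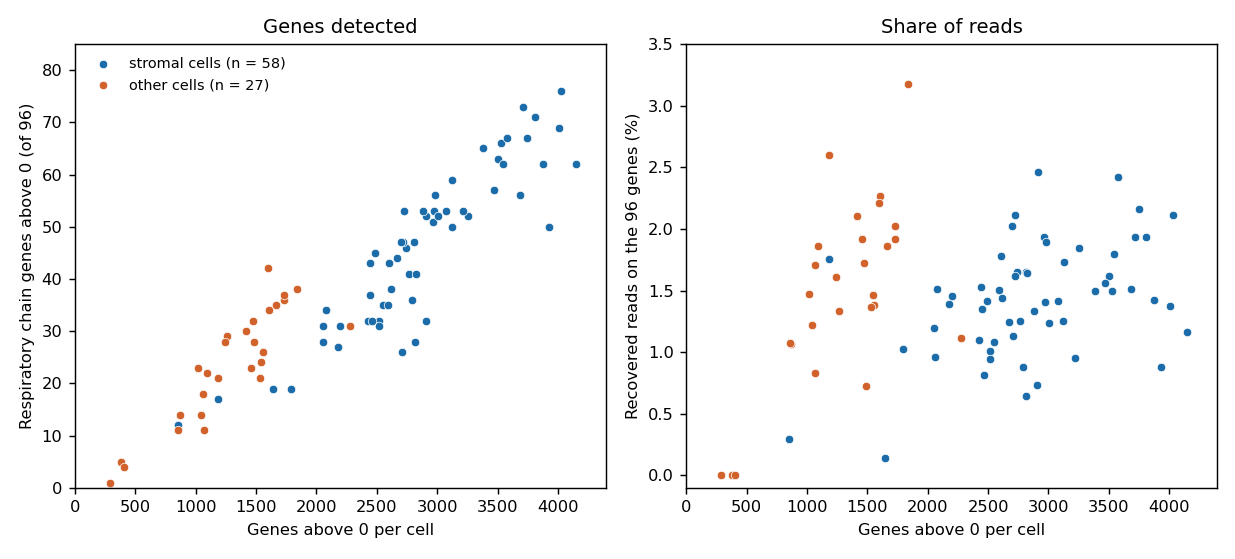
Each point is 1 cell, blue for stromal and orange for other cells. The number of the 96 genes above 0 (left) is larger in cells with a larger the number of all genes above 0, whereas their share of recovered reads in percent (right) has similar medians, 1.43% and 1.47%, with 3 other cells near 0.

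By complex, cells mostly held part of the subunits at a time. Of the 38 complex I subunits a stromal cell held a median of 19 (range, 0 to 32) and another cell 10 (range, 0 to 17). The median of complex IV was 8 of 14 in stromal and 6 of 14 in other cells, and that of complex V was 10 and 5 of 17. Complex III had medians of 4 and 2 of 8, and 1 stromal cell held all 8. For complex II the median was 1 of 4 in both classes, all 4 subunits were found together in 2 stromal cells, and none of them was found in 13 stromal and 12 other cells. At least 1 subunit of each of the 5 complexes was found in 43 of 58 stromal cells and in 14 of 27 other cells. A subunit at 0 in a cell was not detected in that library, which does not show that its transcript was absent.

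Mean levels were then compared between the classes as log2(value + 1) on the deposited values, a difference of 1 being an arbitrary mark for size. A mean at least 1 higher in stromal cells was found for 70 of the 92 genes present in at least 3 cells, compared with 35.6% of all such genes. The counts by complex below are read against this share. That share includes many rarely detected genes. Among genes above 0 in at least 10 cells the count was 69 of 85, compared with 60.3% of all such genes. None of the 92 had a mean at least 1 lower, compared with 2.84% of all genes. No replicate check was possible for this. The median difference was 1.80 over the respiratory genes and 0.64 over all genes, or 1.5 and 0.50 on the scale of log2(CPM + 1). Among genes above 0 in at least 10 cells the medians were 1.91 and 1.32.

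The difference moved with genes per cell. Between 850 and 2278 genes above 0, the range both classes share, there were 9 stromal and 24 other cells. Over them the median difference was -0.48 for the 81 respiratory genes above 0 in at least 3 of these cells. Of the 81, 15 were at least 1 higher and 32 at least 1 lower in stromal cells, while 30.5% and 20.9% of all genes were so. The median over all genes in these cells was 0.14. By complex, the median there was -0.40 for the complex I subunits outside the core, -0.18 for complex II, -1.87 for complex III and -1.38 for complex IV, and 0.10 for the complex I core. Those 9 stromal cells held a median of 27 of the genes (range, 12 to 34) and the 24 other cells also 27 (range, 11 to 42), although the stromal ones had more genes in all, with medians of 2053 and 1463.5. In this range *Atp5k*, *Atp5a1* and *Ndufb11* kept a higher stromal mean, at 7.16 against 2.61, 5.72 against 1.59 and 4.65 against 0.88. *Cox5a*, *Cox6b1* and *Uqcr11* had the lowest stromal means relative to other cells, at 0.78 against 5.31, 2.21 against 6.18 and 2.19 against 5.89. The part of genes per cell in the class difference was not tested beyond this.

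The genes were also set beside genes of like mean level. Genes were placed in bands 1 wide of their mean over all cells, and each respiratory gene was set beside the median difference of the other genes in its band. Above that median lay 33 of the 92 genes, compared with 49.9% of all genes. The split went by level. Of the 70 genes with a mean under 5, 31 lay above, whereas of the 22 genes with a mean of at least 5 only 2 did. These 22 had a median difference of 2.13, while the 523 other genes of that level had one of 3.80.

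**Figure D3:**
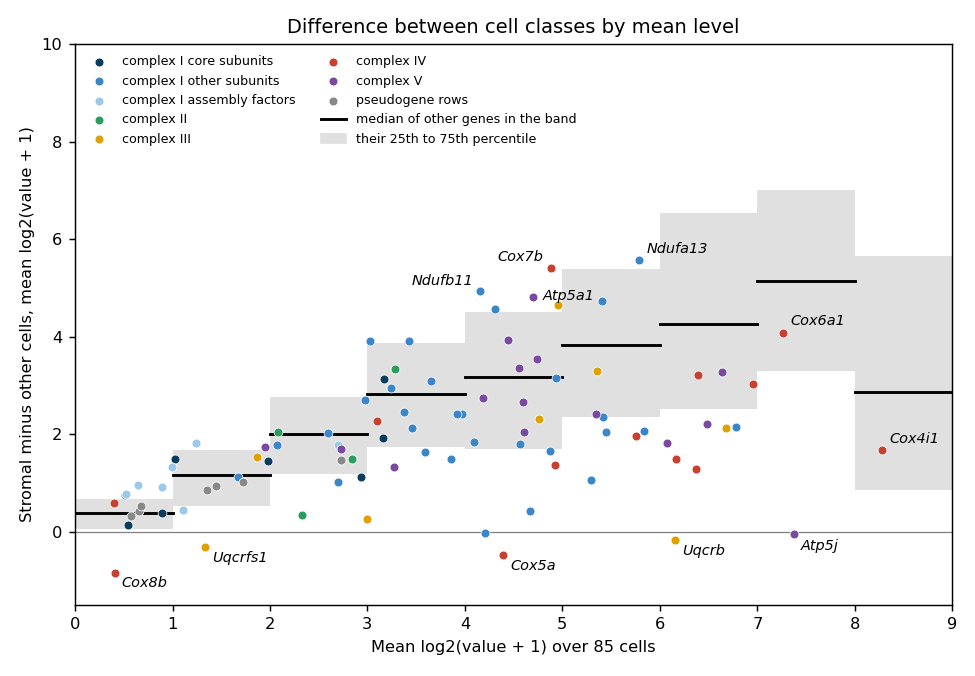
The x axis is a gene's mean log2(value + 1) over the 85 cells and the y axis its stromal mean minus its mean in other cells. Points are the 92 genes found in at least 3 cells, black bars are medians and grey boxes the 25th to 75th percentiles of the other genes in each band. From a mean of 5 upward 20 of 22 points lie under the black bars, and *Cox5a*, *Uqcrb* and *Atp5j* lie just under 0.

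The complex I core, which carries the flavin and the iron-sulphur clusters, had a mean at least 1 higher in stromal cells for 5 of its 7 nuclear genes. *Ndufv2*, an iron-sulphur subunit, was above 0 in 24 of 58 stromal cells (41.4%) and in 3 of 27 other cells (11.1%). Stromal cells above 0 held 3 to 5162 of its reads (median, 1544.5), and the 3 other cells held 262, 292 and 2857. The mean was 4.16 ± 5.17 in stromal cells and 1.03 ± 3.04 in other cells, where ± is the SD over cells. *Ndufs3* was above 0 in 25 and 6 cells, with means of 3.76 ± 4.71 and 1.85 ± 4.16. In the shared range of genes per cell *Ndufv2* and *Ndufs3* differed by -0.26 and 0.61. Of 5 core genes compared in that range, 0 differed by at least 1 in either direction. *Ndufv1*, which binds the flavin, was found in 11 stromal cells only, and its mean was higher there by 1.5. *Ndufs1* and *Ndufs8*, both iron-sulphur subunits, had the smallest differences, 0.39 and 0.14. The 3 other cells with *Ndufs1* held 3, 3 and 8545 reads, and without the last the difference was 0.85. Of *Ndufs8*, 6 stromal cells held 3 to 196 reads and a single other cell held 3947, so its mean in other cells, 0.44, rests on that cell and the difference without it was 0.58.

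*Ndufs7*, also a core iron-sulphur subunit, showed how low values can count as detection. It was above 0 in 28 stromal cells (48.3%) and 14 other cells (51.9%). In the 14 other cells, however, its median was 2.5 reads, and 10 of them held under 10 reads, as did 5 of the 28 stromal cells. At least 100 reads were found in 23 stromal cells and 4 other cells. The classes were thus alike in cells above 0 and unlike in cells with many reads, and its mean was 3.29 ± 4.07 in stromal and 2.18 ± 3.25 in other cells. Over the 89 genes that are no pseudogene rows, 4.27% of the stromal values above 0 and 12.5% of those of other cells were under 10 reads, whereas 92.2% and 86.3% were at least 100 reads.

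Among the other complex I subunits, 28 of 31 had a mean at least 1 higher in stromal cells and the median difference was 2.12. *Ndufa13*, also known as GRIM-19, had the largest difference of all 96 genes. It was above 0 in 44 stromal cells (75.9%, interval 62.8% to 86.1%) and in 5 other cells (18.5%, interval 6.30% to 38.1%). Stromal cells above 0 held 342 to 3723 reads (median, 913.5), and the 5 other cells held 1030 to 2404 (median, 1321). The classes therefore differed in the number of cells in which it was detected, and the values within positive cells overlapped. Over all cells its means were 7.56 ± 4.38 and 1.99 ± 4.25. In the shared range of genes per cell *Ndufa13* was above 0 in 3 of 9 stromal and 5 of 24 other cells, with a difference of 1.47. Of 29 subunits of this group compared in that range, 7 were at least 1 higher and 13 at least 1 lower in stromal cells. *Ndufb11* was above 0 in 34 and 2 cells, with means of 5.72 ± 4.91 and 0.78 ± 2.81. The 2 other cells held 1334 and 1598 reads, within the stromal range of 72 to 3103. *Ndufa3* and *Ndufa1*, which together with *Ndufa13* had the highest means over all cells in this group, were above 0 in 47 and 36 stromal cells and in 14 and 11 other cells, and differed by 2.14 and 2.06. *Ndufc2* and *Ndufb8* were close between the classes, with differences of -0.03 and 0.41. *Ndufc2* was above 0 in 29 stromal cells (median, 730 reads) and in 11 other cells (median, 1416 reads). Without the highest other cell these differences were 0.29 and 0.72.

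The 8 complex I assembly factors, which help build the complex and are not part of it, were detected least, in a median of 9.5 cells. Of the 7 found in at least 3 cells, 3 had a mean at least 1 higher in stromal cells, near the 35.6% of all genes. *Ndufaf8* was above 0 in 21 and 4 cells, with means of 3.26 ± 4.40 and 1.49 ± 3.63. *Ndufaf4* was found in 12 stromal cells and had a mean of 1.81 ± 3.72 there. *Ndufaf3* and *Ndufaf5* had the smallest differences, 0.44 and 0.76. *Ndufaf3* was found in 2 other cells, and without the higher of them its difference was 0.84.

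Complex II has no subunit of mitochondrial origin and also belongs to the citric acid cycle. *Sdhb*, its iron-sulphur subunit, was above 0 in 27 stromal cells (46.6%, interval 33.3% to 60.1%) and in 4 other cells (14.8%, interval 4.19% to 33.7%). Means were 4.33 ± 4.93 and 1.01 ± 3.11. Only 2 of those 4 other cells held at least 100 reads, compared with 25 stromal cells. *Sdhc* and *Sdhd*, the membrane anchors, differed by 2.04 and 1.49. For *Sdha*, the flavoprotein, the difference was 0.34, with 15 and 5 cells above 0, and the 5 other cells held more reads (median, 2761) than the 15 stromal cells (median, 727). Without the highest of the 5 the difference was 0.77. In the shared range of genes per cell *Sdhb*, *Sdhd* and *Sdha* differed by -0.18, 2.74 and -1.55.

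In complex III, 5 of 8 genes had a mean at least 1 higher in stromal cells and 2 had a mean below that of other cells. *Uqcrh*, the hinge protein, was above 0 in 40 stromal cells (69%) and 5 other cells (18.5%), with means of 6.43 ± 4.56 and 1.78 ± 4.19. *Uqcr10* differed by 3.30 and *Uqcr11*, which had the highest mean log2(value + 1) of the complex, by 2.12. In the shared range of genes per cell *Uqcrh*, *Uqcr10* and *Uqcr11* differed by 0.44, -1.99 and -3.70. There 0 of the 8 genes were at least 1 higher and 5 at least 1 lower in stromal cells. *Uqcrb* was above 0 in 34 stromal cells (58.6%, interval 44.9% to 71.4%) and 15 other cells (55.6%, interval 35.3% to 74.5%). Its positive cells held 168 to 7900 reads in the stromal class (median, 1575) and 266 to 11182 in the other (median, 2069). With means of 6.09 ± 5.26 and 6.27 ± 5.80, the difference was much smaller than the spread over cells. *Uqcrfs1*, the Rieske protein, was found in 10 and 4 cells and had a difference of -0.32. Leaving out the other cell with the highest value turned both signs, to 0.10 for *Uqcrb* and 0.17 for *Uqcrfs1*.

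Of complex IV, 10 of the 13 genes found in at least 3 cells had a mean at least 1 higher in stromal cells. *Cox7b* had the second largest difference of all 96 genes. It was above 0 in 38 stromal cells (65.5%, interval 51.9% to 77.5%), which held 133 to 3821 reads, and in 4 other cells (14.8%, interval 4.19% to 33.7%), which held 2 to 1490. Its means were 6.60 ± 4.92 and 1.20 ± 3.27. *Cox6a1* was above 0 in 49 and 13 cells with a difference of 4.08, and *Cox6c* in 50 and 13 cells with a difference of 3.03. In the shared range of genes per cell *Cox7b*, *Cox6a1* and *Cox6c* differed by 1.07, 0.79 and 0.34. Of 12 genes of the complex compared in that range, 2 were at least 1 higher and 7 at least 1 lower in stromal cells. *Cox4i1* was above 0 in 52 stromal cells (89.7%, interval 78.8% to 96.1%) and in 21 other cells (77.8%, interval 57.7% to 91.4%), with means of 8.81 ± 3.46 and 7.14 ± 5.12. Median reads over all cells, zeros included, were 1137 in stromal and 1142 in other cells. The most widespread gene thus had close median reads in both classes. *Cox5a*, which lies on the matrix side of the enzyme, had a difference of -0.48, with 28 stromal cells above 0 (median, 643 reads) and 12 other cells (median, 1555.5 reads).

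ATP synthase had the largest median difference of the complexes, 2.41, and 14 of the 15 genes found in at least 3 cells were at least 1 higher in stromal cells. *Atp5a1*, the α subunit, was above 0 in 38 stromal cells (65.5%) and 5 other cells (18.5%). Stromal cells above 0 held 2 to 9303 reads (median, 1666) and the other cells 3 to 7653 (median, 425), and the means were 6.23 ± 5.19 and 1.41 ± 3.60. *Atp5f1*, subunit b of the stalk, was above 0 in 33 and 4 cells and had a difference of 3.93. *Atp5b*, which forms the catalytic sites with the α subunit, was above 0 in 49 and 15 cells and had a difference of 3.28. *Atp5j2* differed by 2.20, and *Atp5c1*, the rotating γ subunit, by 1.32. *Atp5j* was the exception. It was above 0 in 47 stromal cells (81%, interval 68.6% to 90.1%) and 20 other cells (74.1%, interval 53.7% to 88.9%), and its means were 7.36 ± 4.11 and 7.41 ± 5.12. That difference of -0.05 became 0.16 without the highest other cell. In the shared range of genes per cell the ATP synthase median turned to -0.52, with 3 genes at least 1 higher and 5 at least 1 lower in stromal cells. There *Atp5a1* and *Atp5b* kept a higher stromal mean, at 5.72 against 1.59 and 6.95 against 4.95, while *Atp5f1*, *Atp5c1* and *Atp5j2* differed by -0.14, -1.24 and -2.08.

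More cells and fewer reads per cell went together. For the 56 genes above 0 in at least 5 cells of each class, the median level in positive cells, as CPM, was lower in stromal cells for 51 and higher for 5. Among all 2206 genes of that kind it was higher for 32.4%. The stromal level in positive cells was 0.513 times that of other cells at the median over the 56 genes, and 0.674 times over all 2206. In contrast, the share of cells above 0 was 1.73 times as large at the median over the 56 genes and 1.61 times over all. *Cox4i1*, for instance, had a median of 454 CPM in positive stromal cells and 688 in positive other cells, and *Atp5j* had 259 and 549. *Atp5a1*, at 509 and 157, and *Atp5b*, at 324 and 232, were among the 5 exceptions. The others were *Ndufb5*, *Ndufs7* and the pseudogene row *Atp5l-ps1*. These exceptions include many low counts. Under 10 reads were held by 2 of 5 positive other cells for *Atp5a1* and 6 of 15 for *Atp5b*. For *Ndufb5* and *Ndufs7* it was 4 of 8 and 10 of 14, and *Atp5l-ps1* held at most 26 reads. The mean CPM over all cells was 493 in stromal and 792 in other cells for *Atp5b*, and 395 and 153 for *Atp5a1*. Since a cell's CPM are shared out among the genes it holds, a class with fewer genes per cell has more reads for each. The part of this in the difference was not tested.

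Several subunits have isoforms known from other tissues, and nearly all reads came from the isoform that is widely expressed. *Cox4i1* took 99.99% of the reads of its pair, and the 6 reads of *Cox4i2*, the hypoxia and lung isoform, came from 1 stromal cell. *Cox6b2*, known from testis, was found in 5 stromal cells with 2 to 641 reads, and *Cox6b1* held 98.1% of that pair's reads. *Ndufa4l2*, a hypoxia-inducible relative of *Ndufa4*, was found in 6 stromal cells with 121 to 357 reads. *Ndufa4* was also above 0 in 5 of these 6. *Cox6a2*, *Cox7a1*, *Cox7b2* and *Cox8c* had no row under these symbols and so were not analysed here.

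*Cox8b*, the isoform of muscle and brown fat, had the lowest difference of the 92 genes but was found in few cells. It was found in 4 of 27 other cells (14.8%, interval 4.19% to 33.7%) with 3, 151, 321 and 499 reads, and in 2 of 58 stromal cells (3.45%, interval 0.42% to 11.9%) with 2 and 74 reads. All 3 cells with over 100 reads were other cells with 4 to 8 endothelial markers at a value of 100 or more. The intervals overlapped and its difference was -0.85. *Cox8a*, the widespread isoform, was above 0 in 45 stromal and 12 other cells and took 98.4% of the reads of the pair, and it was found together with *Cox8b* in 3 cells.

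Of the complex IV relatives, *Cox7a2* was above 0 in 56 cells and *Cox7a2l*, a factor of supercomplexes, in 27, with 18 cells holding both. *Atp5g1*, *Atp5g2* and *Atp5g3* encode the same mature c subunit of ATP synthase. They were above 0 in 42, 20 and 41 cells and took 44.8%, 11.8% and 43.4% of their joint reads. All 3 were found together in 13 cells, 2 of them in 23 cells and 1 alone in 18 cells, while 31 cells held none. Thus a c subunit transcript of some kind was detected in 54 of 85 cells.

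The 7 pseudogene rows were read beside the genes they are named after, because reads of near-identical copies may be divided between them. In all they were above 0 in 267 instances of a row and a cell, and the gene was above 0 in the same cell in 265 of these. The 2 instances without it held 5 reads together. *Atp5l2-ps* was found in 51 cells, in each of which *Atp5l* was above 0, and held a median of 4.50% of the *Atp5l* reads among cells with at least 100 of them (25th to 75th percentile, 3.91% to 6.65%). *Ndufab1-ps* held a median of 6.87% of the *Ndufab1* reads (5.97% to 7.76%). For *Atp5k-ps2* and *Atp5l-ps1* the median was 1.53% and 1.38%, and for *Atp5l-ps2*, *Uqcrh-ps1* and *Uqcrh-ps2* it was 0.143%, 0.159% and 0.159%. Reads of these rows and of their genes cannot be told apart here. Without them 68 of the remaining genes were at least 1 higher in stromal cells and the median difference was 1.91.

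**Figure D4:**
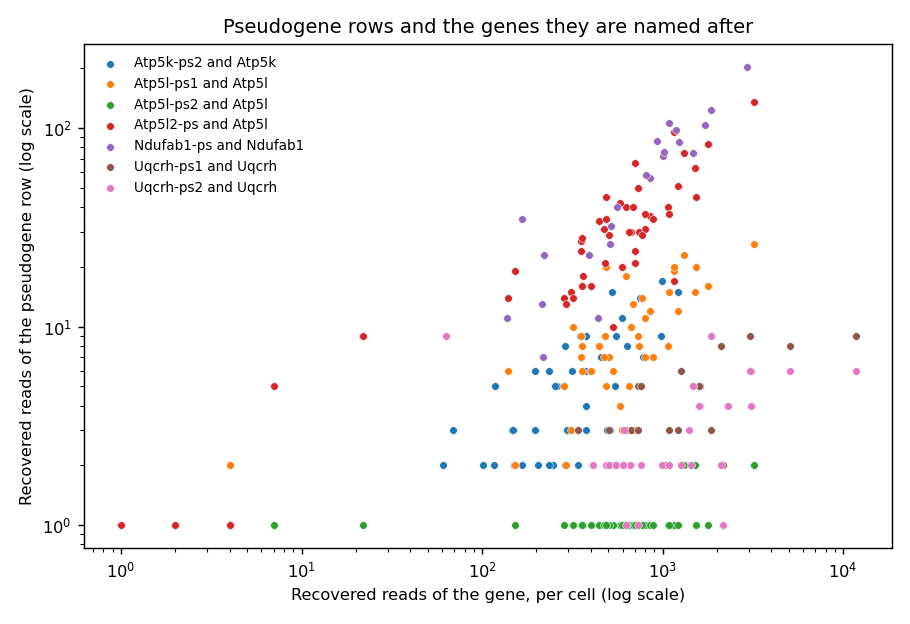
Recovered reads of each pseudogene row in a cell (y axis, log scale) are plotted against those of the gene it is named after (x axis, log scale), for cells in which both are above 0, with 1 colour per pair. *Atp5l2-ps* and *Ndufab1-ps* climb with *Atp5l* and *Ndufab1*, at medians of 4.50% and 6.87% of their reads.

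Over all cells, the mitochondrially encoded subunits of the same complexes lay on the other side. Of these 13 genes, 10 had a mean at least 1 lower and 1 at least 1 higher in stromal cells, compared with 2.84% and 35.6% of all genes. The median difference of the 13 was -1.97. The 13 genes were not set beside genes of like mean level. Nor were they compared in the shared range of genes per cell, where the median over the nuclear genes was itself -0.48. *mt-Nd1* had means of 6.82 ± 6.23 and 11.05 ± 6.64 in stromal and other cells, and *mt-Nd3* 5.04 ± 3.95 and 8.33 ± 4.04, whereas *mt-Nd2* was higher in stromal cells at 8.13 ± 4.52 against 5.29 ± 6.05 and *mt-Co1* differed by 0.48. They took a median of 1.51% of a stromal cell's reads (range, 0.408% to 7.18%) and 5.66% of those of another cell (range, 0.266% to 52.4%). Set against the share of the 96 nuclear genes in the same cell, this gave a median ratio of 1.09 in stromal and 3.82 in other cells. The share of mitochondrial reads is commonly read as a sign of cell damage, and this measure of RNA quality moved with the classes. Its part in the difference was not tested.

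**Figure D5:**
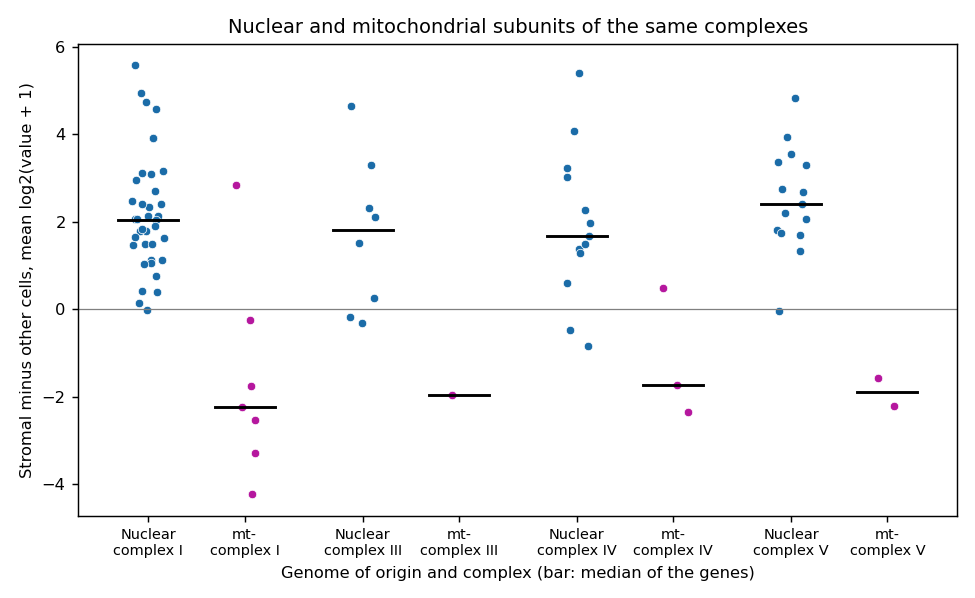
Each point is 1 gene, with its stromal mean minus its mean in other cells (log2(value + 1)) on the y axis, for nuclear (blue) and mitochondrially encoded (magenta) subunits of each complex, and bars mark medians. The nuclear medians all lie above 0 and the mitochondrial ones below it, with *mt-Nd2* and *mt-Co1* as the mitochondrial points above 0.

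Other genes of mitochondrial respiration came from lists that do not overlap the 96, and their counts are read against the 35.6% of all genes with a stromal mean at least 1 higher and the median of 0.64 over all genes. Of 25 assembly factors of complexes II to V found in at least 3 cells, 10 were at least 1 higher in stromal cells and 0 were lower by as much, with a median difference of 0.57. *Uqcc2*, an assembly factor of complex III, was above 0 in 38 stromal cells and 1 other cell, a difference of 5.51, and *Uqcc3* in 18 and 0. *Lyrm7* and *Atpaf2* had differences of -0.10 and -0.09. The 3 further ATP synthase genes were all at least 1 higher, namely *Usmg5* by 3.21, *2010107E04Rik* by 2.73 and *Atpif1*, the inhibitor of the enzyme, by 1.84. Of the 14 citric acid cycle genes 7 were higher by at least 1 (median difference, 1.11), with *Ogdh* at 2.73 and *Suclg1* at 1.97, while *Idh3g* and *Fh1* differed by 0.17 and 0.33.

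Cytochrome c, the carrier between complexes III and IV, and cytochrome c1, a subunit of complex III, differed little in mean log2(value + 1). *Cycs* was above 0 in 27 stromal and 12 other cells with a difference of -0.47, and *Cyc1*, above 0 in 13 and 4 cells, differed by 0.52. In positive cells, however, the median of *Cycs* was 287 CPM in stromal and 1216 in other cells, and that of *Cyc1* 330 and 2022. Among the carriers of phosphate and adenine nucleotides, *Slc25a3* and *Slc25a4* had higher stromal means, 6.64 ± 4.98 against 1.20 ± 3.56 and 7.52 ± 5.16 against 2.87 ± 5.08. *Slc25a5* had the opposite, 3.42 ± 4.91 against 5.46 ± 6.57. *Ucp2*, of the uncoupling family, was found in 2 and 1 cells. Of 6 regulators of mitochondrial biogenesis found in at least 3 cells, 0 reached a difference of 1 in either direction, and their median was 0.39. *Nrf1* came nearest at 0.99, and *Tfam*, which packages mitochondrial DNA, was found in 4 stromal cells and 1 other cell with a difference of 0.01, as *Tfb2m* was with 0.13.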

How the data were processed

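After FastQC, the authors aligned the reads of each single cell to mm9 with HISAT2 2.0.5, sorted them with SAMtools 1.4, assembled them with StringTie 1.3.3 and used scater for filtering cells and scaling, with versions as in the submitters' processing notes. The deposited values are a signal, reads per gene after that scaling, for 16069 genes by 85 cells, and every listed gene has a value above 0 somewhere. The program that counted reads is not given in the sources used here. As they are no whole counts, differences were taken on log2(value + 1).

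Within a cell, 5404 genes fell into 13 groups, each scaled by a factor of its own, and 10665 genes were whole numbers. Dividing by the factor gave recovered reads, between 1146951 and 4776510 per cell, and 1 of 144272 scaled values above 0 was not whole within tolerance. That tolerance was built on a relative 2e-09 and an absolute 1e-08 reads, each widened, the absolute one more for small factors. The factor of 20 pairs of cell and group rests on fewer than 10 values. All 96 genes were matched to RefSeq. The 9 cells without a column were not analysed here, and all columns were used. Doublets were not called since a well was to hold 1 sorted cell. The 1 stromal cell with endothelial markers had 7 of 8 stromal and 6 of 12 endothelial markers at a value of 100. It was kept, and whether it was a doublet was not tested.

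The genes and all lists were chosen with earlier results of these data known. The text names, for each group of subunits, the 3 genes of highest mean and the 2 of largest and of smallest difference, all isoform pairs, and 2 genes at each end of the other lists, besides members with a count of their own. As all cells are 1 sample, no p-value was computed. Genes above 0 in at least 3 cells entered the differences. Alternatives were the scaling, pseudocount, filter, *Dcn* threshold, reads needed for detection, thinning of every cell to 1146951 reads, cells left out, members left out and the bands of level. Scripts were tested on simulated data. Of the marker lists, those for mesothelium had 3 genes at a value of 100 in 2 stromal cells, and that for smooth muscle and pericytes in 0 cells. The lists for immune, muscle, brown adipocyte and proliferating cells had 2, 0, 2 and 1 genes in the table, too few to reach 3. Python 3.11.15, numpy 2.4.6, pandas 2.3.3, scipy 1.17.1 and matplotlib 3.10.9 were used.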

Additional observations from a re-analysis of the deposited data

How the results depend on the processing

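Across 16 alternatives set at the start and 1 added after seeing the data, 85 values over the gene set kept their direction and stayed within 1.5 times, or 1 SD over cells, of the reported one. Only cells in the range of genes per cell that both classes share, 850 to 2278 genes, gave the reverse, a median difference of -0.48. Of 81 genes compared there, 15 were higher and 32 lower in stromal cells, and the median was 27 genes per stromal cell. With 9 stromal cells in it, this alternative rests on few cells. A pseudocount of 10 gave a median difference of 1.07. Genes lower in stromal cells were 3 both when the other cells were limited to those with at least 3 endothelial markers and when cells with fewer than 1000 genes above 0 were left out, the alternative added later. The cause of these changes was not tested. No paired analysis was possible because all cells belong to 1 group. For single genes, leaving out the other cell with the highest value, also added later, can only raise a difference, and it turned the sign of *Atp5j*, *Ndufc2*, *Uqcrb* and *Uqcrfs1*. Thinning to the lowest total left medians of 45.5 and 24 genes per cell, and a requirement of at least 100 reads left 40.5 and 21. As positive values had medians of 677 and 1122.5 amplified reads, thinning says little on transcripts lost before amplification.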
